A study of Pimephales promelas with 80 samples.

Results

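Of the 26150 genes counted in fathead minnow larvae, 33 met a rule that looks for genes higher in larvae kept with a high dose of 6PPD-quinone and near the control level in larvae kept with the parent compound 6PPD. Levels were read as L, the log2 of CPM plus 1, where CPM are counts per 10 to the power of 6 counts in genes of the library. Q8 is the mean L of the 5 fish at 8.78 mg/L 6PPD-quinone minus the mean L of the 10 controls, and P6 is the same difference for the 5 fish at 2.68 mg/L 6PPD. A gene entered with at least 10 counts in every control (18486 genes), Q8 of at least 0.4 (616 of those), at least 4 of the 5 fish at 8.78 mg/L above the highest control (107 of those), and P6 above -0.4 and below 0.3. That last condition left 33 genes, while 62 others had P6 of 0.3 or more and 12 had P6 of -0.4 or less. The members were selected on the values of these 20 fish, so what the 33 genes do in them is described here without a test. The tests use the other 60 fish.

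6PPD is an antioxidant added to tire rubber, and 6PPD-quinone (6PPD-Q) forms when 6PPD reacts with ozone, so that both wash from roads into streams. The quinone is known for killing coho salmon at low concentrations, while several other fish, the fathead minnow among them, are known as tolerant. A larva's whole-body RNA mixes all of its tissues, so fewer cells of a type and less RNA per cell cannot be told apart.

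Each of the 80 libraries was made from 1 whole unfed larva of Pimephales promelas from a culture, after a day in a well of a 96-well plate with 0.3% DMSO, the solvent, in controls and exposed wells alike. Parents were several breeding crosses, whose hatched larvae were mixed and then assigned to wells at random. By the wells in the labels, the doses themselves were partly in order. Those of 6PPD fell along part of row A, and those of 6PPD-Q rose along part of row H and fell down the last column. There were 10 controls without either chemical. 6PPD was given at 0.00848, 0.0268, 0.0848, 0.268, 0.848 and 2.68 mg/L and 6PPD-Q at 0.00277, 0.00878, 0.0277, 0.0878, 0.277, 0.878, 2.77 and 8.78 mg/L, with 5 fish at each dose. Doses are nominal, and the labels do not agree on whether age was counted from hatching or from fertilization.

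With M for 10 to the power of 6, libraries held from 16.2 M to 36.6 M counts in genes, the median being 20.3 M. The share of reads outside any annotated gene lay between 7.73% and 13.5%, with a median of 10.5%. The labels of control replicates 1 and 2 and of replicate 1 at 2.68 mg/L 6PPD carry the letter A before the well. Those of the other 77 libraries carry the letter C, and the letters are read here as plates A and C. Replicate 5 at 8.78 mg/L 6PPD-Q had the fewest genes detected (22110). The identifiers of the counted genes begin with FMg and none of the 26150 matched the supplied gene table, so the members have no names, functions or sequences here. The 2 members with the largest Q8 are given by identifier and the others by their rank in Q8. Genes in near-identical copies may share reads, and the strand setting of the counting is not given in the sources used here, so the level of any such member is uncertain.

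The members ranged from scarce to abundant, with a median level below that of all genes, and differed modestly from the controls at 8.78 mg/L. Q8 ran from 0.40 to 0.93 (median 0.54), and the ratio of the mean CPM at 8.78 mg/L to that of the controls ran from 1.34 to 2.56 (median 1.55). Their mean control CPM ran from 0.763 to 568 with a median of 8.57, below the median of 15.6 over the 18486 genes. Under 5 CPM in controls lay 13 members, and over 50 CPM lay 6. The spread of L between control fish was that of other genes, with a median SD of 0.21 against 0.22.

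P6 of the members ran from -0.38 to 0.28 (median -0.05), with 14 members above 0 and 19 below. Only 8 members lay within 0.1 of 0, and 11 lay at or below -0.2, so being near the control level with 6PPD means within the limits of the rule. In addition, the doses behind Q8 and P6 differ, and no 6PPD dose near 8.78 mg/L is in the series. The set therefore compares 8.78 mg/L of the quinone with 2.68 mg/L of the parent, each against controls, and not the chemicals at 1 dose.

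The members with the smallest Q8 had 0.402, 0.408 and 0.422, and the genes just outside, which met the other conditions, had 0.398, 0.393 and 0.391. At the upper limit of P6 the members nearest had 0.277, 0.277 and 0.253, and the genes just outside had 0.309, 0.332 and 0.341. At the lower limit the nearest members had -0.383, -0.337 and -0.329, and the genes just outside had -0.424, -0.439 and -0.462.

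The member with the largest Q8, FMg019749 (Q8 0.93, P6 -0.05), had 32.8, 18.4, 32.1, 17.3 and 34.5 CPM in the 5 fish at 8.78 mg/L, against a lowest, median and highest control of 8.35, 13.1 and 17.6 CPM. Replicates 1, 3 and 5 stood well above the controls, replicate 2 just above, and replicate 4 inside their range. The fish at 2.68 mg/L 6PPD had 12.8, 14.3, 10.7, 15.3 and 10.6 CPM, all among the controls. Its mean went from 13.5 ± 3.32 CPM (SD, n = 10) to 27.0 ± 8.43 (n = 5), a ratio of 2.01. FMg020267, ranked 2 (Q8 0.87, P6 0.11), had 15.5, 6.96, 17.4, 9.10 and 11.3 CPM at 8.78 mg/L, where the controls had 3.48, 6.29 and 7.98. Here replicate 2 fell inside the control range. At 2.68 mg/L 6PPD this gene had 5.62, 7.84, 4.85, 6.39 and 7.53 CPM, again all within the controls.

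The gene ranked 3 (Q8 0.82) had 7.45, 5.33, 4.47, 1.80 and 5.46 CPM at 8.78 mg/L against 0.521, 2.25 and 3.83 in controls. With 6PPD at 2.68 mg/L it had 5.91, 4.75, 1.00, 1.48 and 1.72 CPM. In 2 of those 5 fish it stood above every control and in the other 3 below the control median, so its P6 of 0.16 is a mean of unlike fish. Without replicate 3 its P6 was 0.36, outside the rule, and without replicate 1 it was -0.09.

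The gene ranked 4 (Q8 0.80, P6 0.19) had 10.6, 21.3, 14.0, 28.8 and 22.0 CPM at 8.78 mg/L and 7.83, 9.96 and 13.1 in controls. It was high in replicates 2 and 4, where the genes ranked 1 and 2 had their lowest values. Replicate 4, inside the control range for rank 1, was its highest fish, and replicate 1 its lowest. Replicate 5 did not follow that pattern, being high for rank 4 and the highest fish for rank 1. In the fish at 2.68 mg/L 6PPD it had 6.59, 10.2, 12.1, 15.1 and 16.6 CPM, so 2 of those fish exceeded every control as well. Of all members it had the steepest slope over the lower 6PPD-Q doses, given further on.

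The gene ranked 5 (Q8 0.74, P6 0.11) had 10.1, 6.37, 9.12, 2.59 and 9.53 CPM at 8.78 mg/L, against 2.81, 3.52 and 6.33 in controls. Replicate 4 was below every control and replicate 2 only just above the highest. The gene ranked 6 (Q8 0.67, P6 0.04) had 5.01, 8.40, 7.59, 5.45 and 6.43 CPM against 2.72, 3.60 and 5.21. Its spread at 8.78 mg/L was narrow and its distance from the controls small, with replicate 1 inside their range. At the next lower dose of 2.77 mg/L it had 2.59, 3.56, 4.23, 3.76 and 2.11 CPM, none above the controls and 2 below the lowest of them.

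The gene ranked 7 (Q8 0.66, P6 -0.28), the most abundant of the first 10, had 154, 52.2, 117, 88.2 and 129 CPM at 8.78 mg/L against 55.1, 63.3 and 86.4 in controls. Replicate 2 lay below every control while the other 4 fish lay above every control. With 6PPD at 2.68 mg/L its 5 values of 54.5, 46.5, 55.1, 54.4 and 52.5 CPM were close together, at or under the lowest control to 3 digits. The gene ranked 8 (Q8 0.65, P6 -0.11) was the scarcest, with 10 to 20 counts per control. At 8.78 mg/L it had 1.40, 1.63, 1.87, 0.688 and 4.18 CPM against 0.507, 0.756 and 0.982 in controls, so replicate 5 carried much of its mean ratio of 2.56.

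The gene ranked 9 (Q8 0.62, P6 -0.02) had 33.9, 30.8, 35.9, 28.4 and 47.0 CPM at 8.78 mg/L against 14.3, 22.3 and 29.1 in controls. The gene ranked 10 (Q8 0.59, P6 -0.34) had 34.98, 30.6, 39.9, 17.3 and 45.1 CPM against 12.1, 22.1 and 30.4. In both, replicate 4 was the fish inside the control range, and for rank 10 replicate 2 was only just above the highest control. With 6PPD at 2.68 mg/L rank 9 had 20.1, 27.8, 20.7, 19.5 and 22.7 CPM, and rank 10 had 15.6, 18.7, 13.8, 22.3 and 12.9. Rank 9 was spread through the control range there, and rank 10 lay mostly in its lower part.

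**Figure D1:**
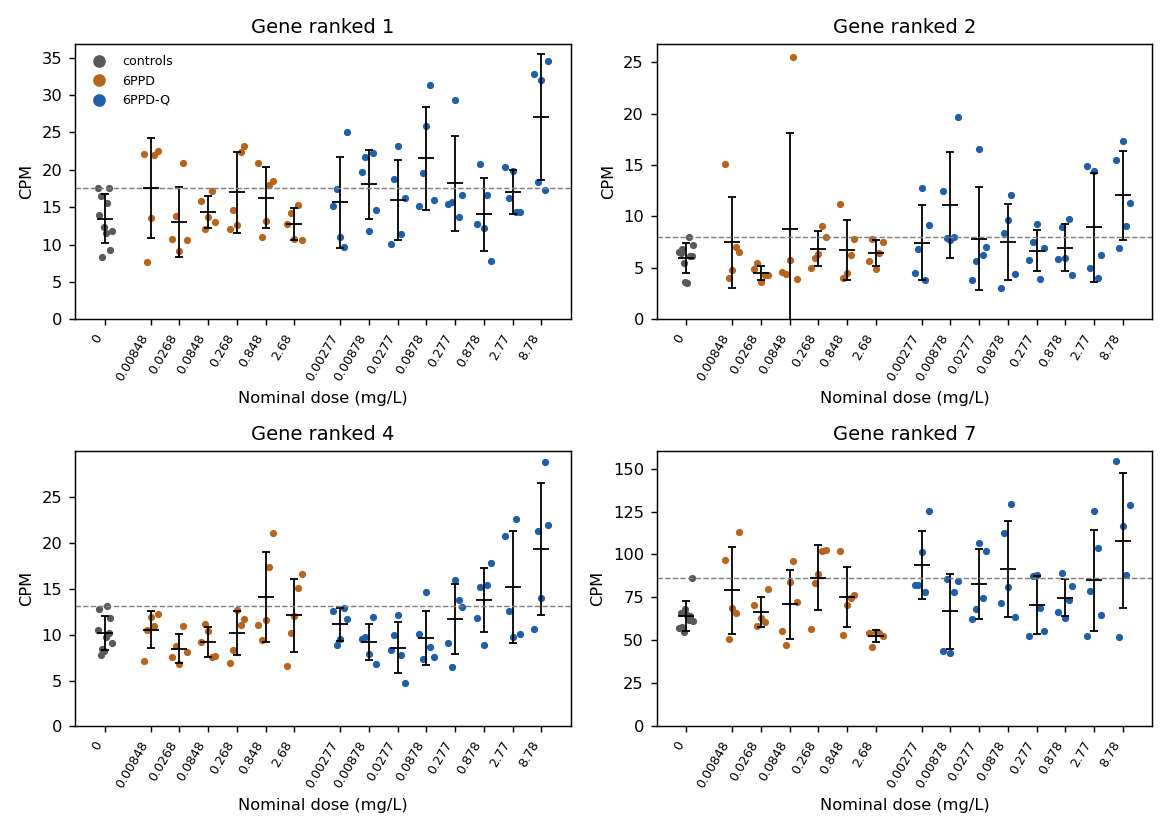
CPM (vertical axes, each from 0) of the genes ranked 1, 2, 4 and 7 in every larva, by nominal dose in mg/L. Points are fish, horizontal marks means, bars 1 SD (cut at 0 for rank 2 at 0.0848 mg/L 6PPD, where 1 fish had 25.5 CPM), and the dashed line is the highest control. At 8.78 mg/L 4 of 5 fish lie above the line for each gene, with replicate 4 under it for rank 1, replicate 2 for ranks 2 and 7, and replicate 1 for rank 4.

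The exposed fish did not carry the set equally. Of the 33 members, replicates 1, 3 and 5 at 8.78 mg/L had 29, 31 and 30 above the highest control, whereas replicate 2 had 24 and replicate 4 had 20. Over all 18486 genes the fish differed in the same way, with 17.0%, 14.8% and 17.2% above the highest control in replicates 1, 3 and 5 and 7.26% and 8.10% in replicates 2 and 4. In replicate 4, 14 members had their lowest value of the 5 fish, and in replicate 2, 10 did. Only 2 members, those ranked 17 and 27, were above every control in all 5 fish, and the other 31 in 4 of 5. The gene ranked 17 had 8.96, 8.94, 9.65, 9.53 and 16.5 CPM where the controls had 5.88, 6.61 and 8.72, so 4 of its fish stood only slightly clear of the controls. The gene ranked 27 had 374, 253, 275, 240 and 262 CPM against 164, 208 and 225. With 1 fish at 8.78 mg/L left out, 3 of the 4 remaining fish were asked to be above the controls, a looser condition. The rule then gave 204 genes without replicate 2, 201 without replicate 4 and 81 without replicate 5, of which 31, 31 and 27 were members. Without replicates 1 and 3 it gave 43 and 42 genes, 25 and 29 of them members. These counts mix the looser condition with the weight of the library left out. The rule gave 51 genes without control replicate 7, all 33 members among them, and 56 without the plate A libraries, 29 of them members.

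Averaged over the 33 members, L exceeded the control mean by 0.68, 0.40, 0.67, 0.32 and 0.76 in replicates 1 to 5 at 8.78 mg/L (0.57 ± 0.19, SD, n = 5). Controls lay between -0.18 and 0.15, and the fish at 2.68 mg/L 6PPD between -0.083 and 0.020. Among the 60 fish the rule did not use, the highest such mean was 0.48, in replicate 4 at 0.0878 mg/L 6PPD-Q, and the next was 0.41, in replicate 1 at 0.00848 mg/L 6PPD. Both are above the lowest 2 fish at 8.78 mg/L.

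**Figure D2:**
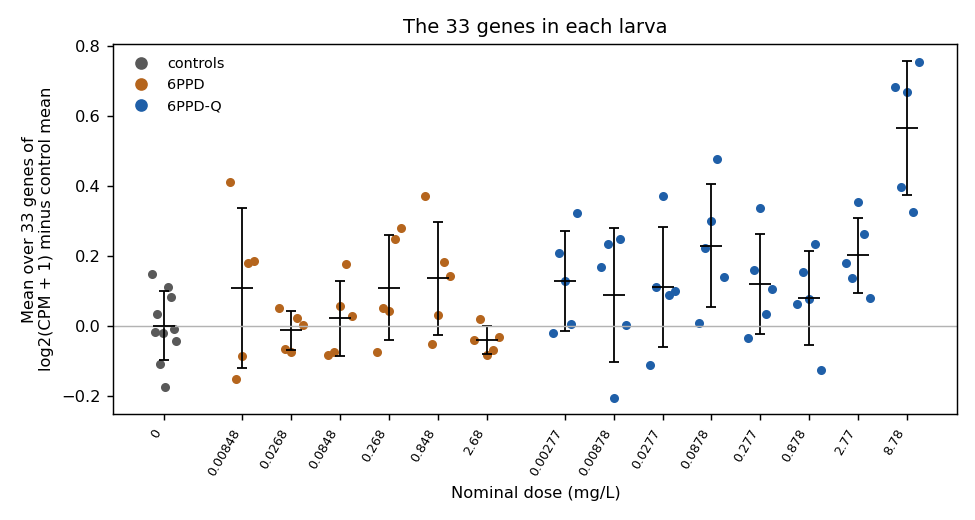
Mean over the 33 members of L minus the control mean (vertical axis, log2 scale) in each of 80 larvae, by nominal dose in mg/L. Points are fish, marks group means and bars 1 SD. The fish at 8.78 mg/L 6PPD-Q lie at 0.32 to 0.76, a position the choice of the genes fixes, and the other exposed groups overlap the controls.

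For some members P6 turned on a single fish. The gene ranked 12 (Q8 0.57, P6 0.24), the most abundant member at a control mean of 568 CPM, had 1112, 550, 852, 883 and 924 CPM at 8.78 mg/L against 504, 575 and 641 in controls. At 2.68 mg/L 6PPD replicate 1 had 1680 CPM, above every quinone fish there, and the others had 560, 542, 380 and 693. Without that fish, which is also the only one of its group on plate A, P6 of this gene was -0.09. Without replicate 2, 3 or 4 it was 0.31, 0.32 or 0.45, outside the rule. Leaving out 1 fish at 2.68 mg/L 6PPD also took P6 outside the limits for the genes ranked 3, 4, 10, 13, 18, 21, 29 and 30. The gene ranked 11 (Q8 0.58, P6 -0.28) had 489, 408, 466, 355 and 613 CPM at 8.78 mg/L against 218, 303 and 391, and 227, 231, 267, 235 and 308 at 2.68 mg/L 6PPD.

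Against the controls, edgeR's quasi-likelihood test with Benjamini-Hochberg adjustment called 56 genes higher at 8.78 mg/L, 0.259% of 21599 tested, and 9 lower, 0.0417%. A gene is called when its adjusted p is under 0.05. Among the 56 were 9 members, ranked 1, 4, 7, 8, 15, 17, 23, 24 and 27. At an unadjusted p under 0.05 all 33 were higher, as were 7.63% of genes, while 5.85% of genes were lower. DESeq2 called 107 genes higher (0.495%), 13 of them members. At 2.68 mg/L 6PPD, 12.4% of genes were called higher and 9.72% lower, and 0 members were called either way by edgeR or DESeq2. There edgeR had 1 member higher and 2 lower at an unadjusted p under 0.05, against 17.2% and 15.4% of genes. The rule fixed both sets of numbers, which are given as a description.

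The first question open to a test was whether the members also followed dose below 8.78 mg/L. The slope of expression on log10 dose was fitted over the 35 fish of the 7 lower 6PPD-Q doses, without controls. edgeR called 3 genes with a positive slope, 0.0142% of 21193, and 0 of the 33 members either way. At an unadjusted p under 0.05 it had 2 members positive and 0 negative, where 1.72% and 2% of all genes were so placed, and DESeq2 called 0 members. Slopes were positive in 16 members and negative in 17, with a median of -0.003 log2 units per 10-fold dose against -0.002 over all genes.

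The 95% intervals of the members' slopes together spanned -0.41 to 0.39 per 10-fold dose, so slopes of that size lie within the interval of some member. For FMg019749 the slope was -0.02 (95% interval -0.16 to 0.12, edgeR adjusted p 0.993), and for FMg020267 it was -0.09 (-0.30 to 0.13, adjusted p 0.986). The gene ranked 4 had the steepest, 0.19 ± 0.07 (SE; 0.06 to 0.33), with an unadjusted p of 0.0061 and an edgeR adjusted p of 0.986. Its mean CPM from the lowest to the seventh dose was 11.2, 9.18, 8.59, 9.63, 11.7, 13.8 and 15.2. The gene ranked 27, one of the 2 above all controls in every fish at 8.78 mg/L, was the other with an unadjusted p under 0.05, at a slope of 0.08.

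The dose next below, 2.77 mg/L, was set against the 4 lowest 6PPD-Q doses in the same 35 fish. Here edgeR called 8 genes higher, 0.0377% of 21193, and 0 members either way. At an unadjusted p under 0.05, 2 members were higher and 0 lower, against 1.87% and 2.1% of all genes, and DESeq2 called 0 members. The members' median difference was 0.01 on the log2 scale, with 18 of 33 positive. The gene ranked 4 had 20.8, 12.6, 9.78, 22.6 and 10.1 CPM at 2.77 mg/L, high in 2 fish and among the controls in the other 3. Its difference was 0.63 ± 0.19 (SE; 95% interval 0.24 to 1.02), with an unadjusted p of 0.0024 and an edgeR adjusted p of 0.835.

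The leading members were likewise mixed at 2.77 mg/L. FMg019749 had 20.3, 16.2, 19.9, 14.3 and 14.3 CPM, 2 fish above the highest control, and its difference from the 4 lowest doses was -0.08 (95% interval -0.48 to 0.32, edgeR adjusted p 0.979). FMg020267 had 14.9, 5.01, 14.4, 4.04 and 6.29 CPM, also with 2 fish high. Its difference was 0.05 (-0.60 to 0.70, edgeR adjusted p 0.991), and it was negative without replicate 1 (-0.22) or without replicate 3 (-0.15) at that dose.

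Set against the controls, which the rule used, the median difference of the 33 members by 6PPD-Q dose from lowest to 8.78 mg/L was 0.13, 0.07, 0.13, 0.24, 0.14, 0.06, 0.19 and 0.54. The numbers of members with at least 4 of 5 fish above the highest control were 0, 1, 2, 4, 0, 0, 5 and 33. Over the 18486 genes those shares were 0.346%, 0.4%, 0.379%, 1.26%, 0.281%, 0.33%, 1.21% and 1.07%. No steady climb toward the top dose is visible, and the highest of the lower doses was 0.0878 mg/L. The genes ranked 11, 12, 13, 20 and 32 were the 5 at 2.77 mg/L, and those ranked 8, 9, 12 and 32 the 4 at 0.0878 mg/L.

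**Figure D3:**
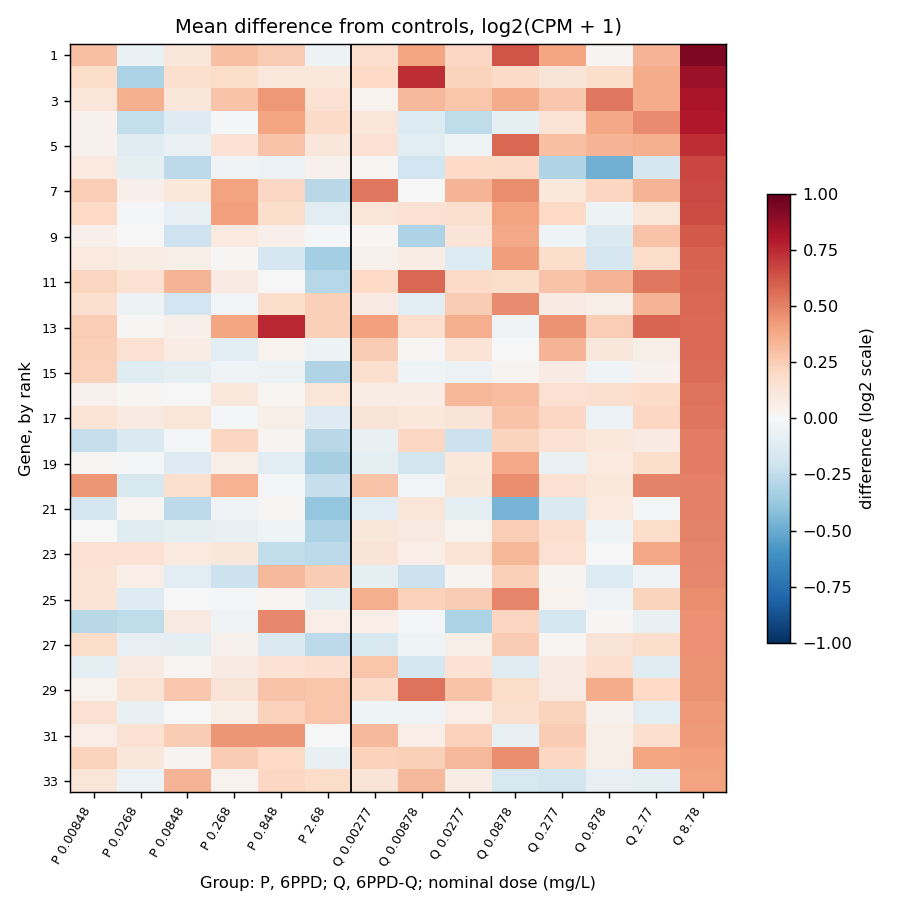
Difference of each group's mean L from the control mean (colour, log2 scale, red higher and blue lower) for the 33 members in rows by rank and the 14 exposed groups in columns, P for 6PPD and Q for 6PPD-Q, by nominal dose in mg/L. The last column is red throughout by the choice of the genes, the sixth is pale within the limits of P6, and the other columns are mixed.

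The same conditions were also read at the other 6PPD-Q doses, against the same controls. Keeping the count, size and fish conditions and the limits of P6, 10, 17, 5, 50, 3, 6 and 28 genes qualified at the 7 lower doses, against 33 at 8.78 mg/L. The 50 genes at 0.0878 mg/L outnumbered those at 8.78 mg/L. Of the 50 genes at 0.0878 mg/L 3 were members, as were 3 of the 28 at 2.77 mg/L and 1 of the 17 at 0.00878 mg/L. These members are out of 33, and the 50, 28 and 17 genes are out of 18486. The members met the count condition and the limits of P6 beforehand, and every dose was read against the same controls. The overlaps are therefore a description only. Without the limits on P6 the highest count was at 8.78 mg/L, with 107 genes, followed by 77 at 0.0878 and 75 at 2.77 mg/L.

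**Figure D4:**
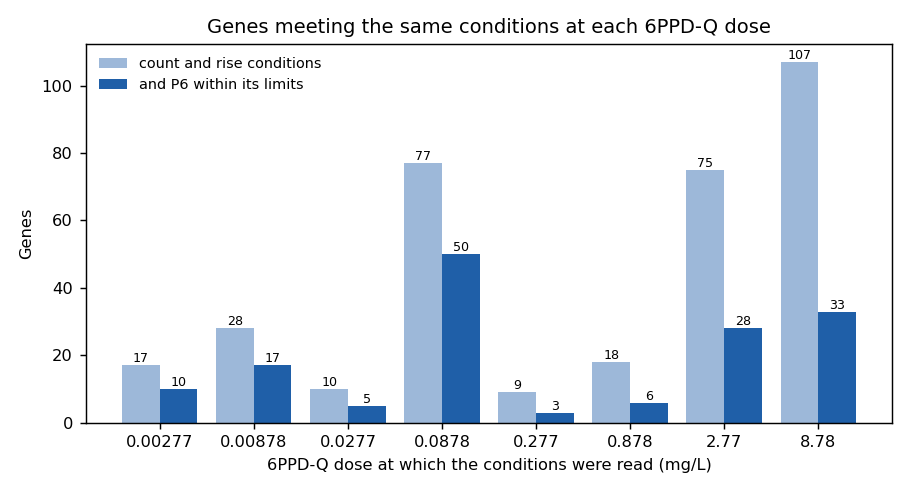
Number of genes (vertical axis, from 0) that met the same conditions when read at each 6PPD-Q dose (mg/L). Pale bars are genes meeting the count, size and fish conditions, and dark bars those that also kept P6 within its limits. The dark bar is highest at 0.0878 mg/L with 50 genes, and 8.78 mg/L has 33.

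For the parent compound, the slope over the 25 fish of the 5 lower 6PPD doses was called positive by edgeR in 57 genes, 0.273% of 20900, and in 0 members either way. At an unadjusted p under 0.05 edgeR had 4 members positive and 1 negative, against 3.42% and 2.52% of all genes. DESeq2 called 0 members but gave no adjusted p for the gene ranked 26, which it therefore could not call. The median slope of the members was 0.03 per 10-fold dose, with 22 of 33 positive. The gene ranked 26 had the steepest slope of any member with 6PPD, 0.66 ± 0.19 (SE; 95% interval 0.28 to 1.04, edgeR adjusted p 0.214). At 0.848 mg/L 6PPD it had 3.34, 0.909, 1.77, 5.23 and 1.39 CPM, with 2 fish far above the highest control of 1.77.

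The gene ranked 13 had 37.2, 25.8, 20.8, 29.4 and 34.8 CPM at 0.848 mg/L 6PPD, against 12.3, 17.0 and 22.0 in controls, so 4 of 5 fish were above every control. Beside these stand its values at 8.78 mg/L 6PPD-Q, a dose not matched, of 24.7, 28.2, 32.3, 25.8 and 17.8 CPM. The 2.68 mg/L 6PPD fish had 14.2, 22.2, 24.7, 14.7 and 27.9 CPM, which gave the P6 of 0.24 that admitted it. Its slope over the 5 lower 6PPD doses was 0.29 ± 0.09 (SE), with an unadjusted p of 0.0030 and an edgeR adjusted p of 0.304. The gene ranked 4 had a slope of 0.22 ± 0.09 with 6PPD (95% interval 0.03 to 0.41, edgeR adjusted p 0.713), beside 0.19 with 6PPD-Q.

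At 0.848 mg/L 6PPD, 3 members had at least 4 of 5 fish above the highest control, those ranked 13, 31 and 32, or 9.09% of the set, where 2.14% of all genes did. At 0.268 mg/L 2 members did, ranked 31 and 32, where 0.352% of genes did. At the other 4 doses 0 members did, and at 2.68 mg/L 10.4% of all genes did. The median difference of the members from controls was 0.14, -0.01, 0.02, 0.08, 0.10 and -0.05 from the lowest to the highest 6PPD dose. The rule used these controls and the fish at 2.68 mg/L. The members' counts and differences here are therefore a description only.

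The chemicals were compared at 5 pairs of nearest doses in 50 fish the rule did not use, with the 6PPD-Q dose 3.31% or 3.57% higher by mass in each pair. The quinone carries ring carbonyl oxygens that its parent lacks, and doses matched by mass are not matched by molecules. Averaged over the 5 pairs, edgeR called 1 gene higher with 6PPD-Q (0.00467% of 21395) and 4 lower (0.0187%), and 0 members either way. At an unadjusted p under 0.05 there was 1 member higher, the gene ranked 16, and 0 lower, against 2.07% and 1.64% of genes, and DESeq2 called 0 members. The difference was positive in 25 of 33 members with a median of 0.08 on the log2 scale, against 52.2% and 0.005 over all genes. Each 6PPD-Q group in these pairs had a fish in the last column of wells, by the labels, and no 6PPD group had. Row A held replicate 1 of each 6PPD group in the pairs and none of the 6PPD-Q groups. Row H held a fish of each 6PPD-Q group but only of the lowest 6PPD group. Chemical is therefore not fully separated from well column or well row in this comparison, and well column was not tested. With well row as a covariate, entered as a number, the members' median was 0.09 with 26 of 33 positive, and 0 members were called. Without 1 replicate number at a time the members' median ran from 0.04 to 0.14, lowest without replicate 3 and highest without replicate 1. Leaving out replicate 1 also takes out the 6PPD fish of row A.

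Members' 95% intervals for the mean difference between the chemicals together spanned -0.46 to 0.81. For FMg019749 the difference was 0.17 (95% interval -0.07 to 0.40) and for FMg020267 it was 0.24 (-0.14 to 0.61), both with an edgeR adjusted p of 1.000. For the gene ranked 16 it was 0.32 (0.07 to 0.58), with an unadjusted p of 0.0146 and an edgeR adjusted p of 1.000. The intervals allow differences near the size of Q8 for some members and do not show that the chemicals act alike.

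In each of the 5 pairs alone, adjusted over the genes of that pair, edgeR also called 0 members. From the lowest pair to the highest, the genes called higher with 6PPD-Q were 1, 0, 7, 1 and 12 (0.00467%, 0%, 0.0327%, 0.00467% and 0.0561%), and those called lower were 0, 0, 0, 0 and 73 (0.341% in the last). The members' median differences were 0.002, 0.17, 0.30, 0.01 and -0.01, and with the share of reads outside genes as a covariate 0.07, 0.14, -0.002, 0.11 and -0.01. At an unadjusted p under 0.05 the first pair had 2 members higher and 1 lower, where 4.32% and 3.19% of all genes were. The second pair had 0 either way (0.729% and 0.982% of genes) and the fourth 1 higher and 0 lower (1.2% and 1.05% of genes). The third pair, 0.0878 mg/L 6PPD-Q with 0.0848 mg/L 6PPD, had 7 members higher and 0 lower, where 7.55% and 6.52% of all genes were. With that share as a covariate 0 members were higher in the third pair, and 16 of 33 differences were positive in place of 24. The fifth pair had 1 member higher and 3 lower at that level, against 2.61% and 3.54% of genes, and the lower ones were ranked 13, 24 and 26.

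The difference between the 2 chemicals' slopes, tested as an interaction over the same 50 fish, was called in 2 genes upward (0.00935%) and 6 downward (0.028%), and in 0 members by edgeR and by DESeq2. With an unadjusted p under 0.05 it had 0 members with a steeper quinone slope and 1 with a steeper parent slope, against 2.48% and 2.92% of genes. That was the gene ranked 26, with a difference of -0.62 ± 0.25 (SE; 95% interval -1.12 to -0.12, edgeR adjusted p 0.780). The slope difference was positive in 8 of 33 members with a median of -0.06, against 49.5% and -0.001 over all genes. Without replicate 4 it was positive in 16 with a median of -0.002, and with column-sum library sizes in 13 with a median of -0.04, where 57.5% of all genes were positive.

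At the nearest doses of about 2.7 mg/L the rule used the 6PPD fish, so values stand side by side without a test. The members' median difference from controls was 0.19 at 2.77 mg/L 6PPD-Q and -0.05 at 2.68 mg/L 6PPD. The gene ranked 27, for example, had 246, 205, 242, 201 and 252 CPM with the quinone and 174, 171, 144, 196 and 161 with the parent. All 5 quinone fish exceeded all 5 parent fish, while the controls, at 164 to 225 CPM, overlapped both. The gene ranked 11 had 437, 299, 500, 488 and 531 CPM with the quinone, mostly above the parent values given earlier. Members also went the other way, as the genes ranked 24 and 30 did. Rank 24 had 23.4, 24.9, 27.6, 24.2 and 31.2 CPM with the quinone and 31.8, 34.4, 33.2, 30.7 and 30.6 with the parent. Rank 30 had 9.24, 5.12, 9.44, 8.79 and 7.17 CPM with the quinone and 12.6, 11.1, 10.1, 9.46 and 9.22 with the parent.

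The share of a library's reads outside any gene moved with the members. At 8.78 mg/L they took 12.5%, 10.5%, 11.9%, 10.1% and 11.9% of reads in replicates 1 to 5, a mean of 11.4% ± 1.00, against 10.4% ± 0.77 in controls, where they ran from 9.25% to 11.7%. The groups overlap, and the 3 exposed fish with the larger shares are the 3 in which most members were above the controls. At 2.68 mg/L 6PPD the share ran from 9.74% to 11.9%. At 0.0878 mg/L 6PPD-Q, the lower dose with the largest median difference of the members, it ran from 9.66% to 13.5%.

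Over the 60 fish not used by the rule, the mean of the members followed this share with Pearson's r = 0.82 and Spearman's rho = 0.83, a description over libraries that share an assay. No mean over other genes was computed beside it, so how particular this value is to the members is not shown. Without the 2 fish farthest from the median share r was 0.80. Within the 25 fish with 6PPD r was 0.74, and within the 35 with 6PPD-Q it was 0.88. Gene by gene the median r was 0.37 with 28 of 33 members positive, against 0.14 and 60.8% positive over the 18486 genes. The 62 genes that missed the set for P6 of 0.3 or more had a median r of 0.30, and the 12 with P6 of -0.4 or less had 0.29.

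The members differed in how far they went with the share. FMg019749 had r = 0.77 and the gene ranked 9 had 0.76, while the genes ranked 11, 14, 28, 31 and 33 had negative values, down to -0.31 for rank 33. Scaled by each gene's line in the 60 fish, the gap of 0.942 percentage points between the fish at 8.78 mg/L and the controls went with a median of 0.09 of Q8 (range -0.09 to 0.30). What remained of Q8 had a median of 0.46 and ran from 0.29 to 0.75, above 0 in 33 of 33 members and at least 0.4 in 23. The rule set Q8 at 0.4 or more and the part taken out was at most 0.30. A remainder above 0 in every member was therefore fixed by the selection and is no test. With that part taken out of every gene, the rule returned 27 genes, 20 of them members. With the share as a covariate, edgeR called 7 members higher at 8.78 mg/L, where 49 of 21599 genes were called higher. At 2.68 mg/L 6PPD it called 1 member lower, where 2527 of 21599 genes were called lower. The rule used both of these contrasts, so the calls with the covariate are a description too and no test of the members. By the wells in the labels, the last column held a fish of each 6PPD-Q dose and no control or 6PPD fish. Reads outside genes took 11.5% to 13.5% there. In its fish at the 7 lower doses the members' mean difference ran from 0.15 to 0.37. Replicate 1 at 8.78 mg/L was in that column too. A share of 13.4% also occurred outside that column, in replicate 3 at 2.77 mg/L. What sets the share of reads outside genes was not tested, nor was the well column.

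**Figure D5:**
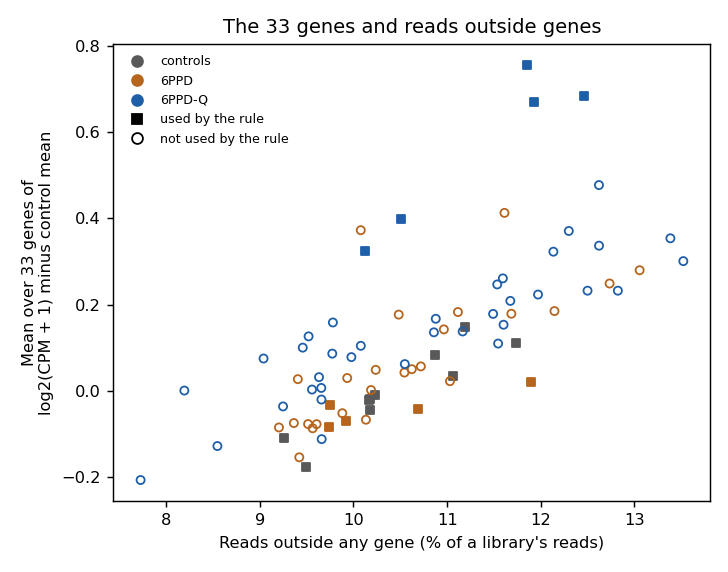
Mean over the 33 members of L minus the control mean (vertical axis, log2 scale) against the percent of a library's reads outside any gene (horizontal axis) in 80 larvae. Filled squares are the 20 fish the rule used and open circles the 60 it did not, over which r = 0.82. Replicates 1, 3 and 5 at 8.78 mg/L 6PPD-Q lie above every other fish, while replicate 4, at 10.1% and 0.32, lies beside a 6PPD fish of like share and height.

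The members did not form a single tight group. Among the 528 pairs of members, Pearson's r of L over the 60 fish had a median of 0.15 and ran from -0.52 to 0.71, was above 0.5 in 27 pairs and above 0 in 391. With the line on the share of reads outside genes removed, the median was 0.04, with 3 pairs above 0.5. The pairs that stayed above 0.5 were those ranked 28 and 31 (0.63 before and 0.61 after), 12 and 24 (0.62 and 0.58), and 12 and 32 (0.65 and 0.56). The most alike before removal, ranked 9 and 23, went from 0.71 to 0.38, and FMg019749 and the gene ranked 17 from 0.66 to 0.42.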

How the data were processed

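RNA of 80 single larvae was sequenced from Lexogen SENSE libraries, per the labels' protocols. The authors deposited whole-number counts per gene, with HTSeq 0.13.5, STAR 2.7.10a and Trim Galore 0.6.6 among the tools in the submitters' processing notes. The build and annotation were not given in the sources used here. Lines that name no gene stayed out of library sizes and tests, and those counted as outside any gene took 7.73% to 13.5% of reads. The authors also deposited log2 values, which matched log2(TMM-scaled CPM + 1) computed from the counts within 2.65e-09%, in 40 libraries with controls and 6PPD and 48 with controls and 6PPD-Q. Missing from the second table are the fish with 0.277 mg/L numbered 3 and the fish with 8.78 mg/L numbered 5, both kept here from the counts. The limma fits on the 6PPD-Q log2 values therefore lack the first of them.

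Tests on the counts used edgeR 4.0.16 under R 4.3.3 (TMM factors, filterByExpr, estimateDisp, quasi-likelihood F test), with Benjamini-Hochberg adjustment over all genes tested and a threshold of 0.05. All 33 members passed that filter in each test. The tests were first tested on simulated counts. Alternatives were DESeq2 1.42.0, limma 3.58.1 on the deposited log2 values, column-sum sizes, no low-count filter, a replicate block, the well row, the share of reads outside genes and leaving out fish. The CPM in the rule and text use column sums with a pseudocount of 1 on the log2 scale, which understates changes of scarce genes. Errors of fold changes are standard errors. Each library is a separate fish, and 77 were on plate C and 3 on plate A. No pair of fish in a group agreed within sampling noise (lowest chi-square per degree of freedom 11.4 in 185 pairs).

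The members, tests and gene lists were chosen with earlier results of these data known. The genes described singly are those ranked 1 to 10 in Q8; a member called in a test on the other 60 fish would have been added, and none was. The genes ranked 11, 12, 13, 16, 17, 24, 26, 27 and others named beyond these were chosen after their values were seen. Lists of pathway and cell type markers hold symbols and could not be matched to the identifiers, so the tissue was not checked against markers and no list is reported. Replicate numbers do not pair the fish: deviations from group means had a mean r of 0.02 between fish of the same number and -0.004 between others.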

Additional observations from a re-analysis of the deposited data

Results flagged for a closer look

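In 3 of 70 sets of values looked at, 1 fish stood far from the rest of its group, and chance alone does so in about 1 group in 20. At 0.277 mg/L 6PPD-Q, the highest fish, replicate 3, had 12.6% of its reads outside any gene. The gene ranked 5 had 11.2 CPM in replicate 4 at 2.77 mg/L 6PPD-Q, above the other 4 fish. The gene ranked 7 had 86.4 CPM in control replicate 9, and this is the value that the fish at 8.78 mg/L had to exceed for that gene.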

How the results depend on the processing

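The number of genes in the set depended on the fish and scaling: TMM-scaled library sizes gave 54 genes (32 of the members), and leaving out the 3 libraries of plate A gave 56 (29 of the members). Without 1 fish the number ran from 29 to 204, with 204 and 201 without replicates 2 and 4 at 8.78 mg/L, 81 without replicate 5 there, and 51 without control replicate 7. With 4 fish left at 8.78 mg/L the rule asked for 3 above the highest control, a looser condition that is mixed into those counts. A Q8 of at least 0.5 left 21 genes and 5 of 5 fish above the highest control left 2. DESeq2 called 148 genes at 8.78 mg/L where edgeR called 65. With the share of reads outside genes as a covariate, 1 member was called at 2.68 mg/L 6PPD, among 5676 genes called, where none was without it. In the 5 tests on other fish, 0 members were called in any of the 12 to 18 settings of each, nor in a single dose pair. The lowest adjusted p of a member was 0.1301, in the third dose pair without replicate 1, and 0.145 outside the single pairs. With a replicate block, 0 members were called in each of the 5 tests. The small slope of FMg019749 over the lower 6PPD-Q doses ran from -0.066 to 0.040 without 1 replicate, and that of FMg020267 from -0.17 to 0.022, both above 0 only without replicate 5. The difference of FMg020267 at 2.77 mg/L was -0.085 with the share of reads outside genes as a covariate and -0.22 to 0.25 without 1 replicate (-0.22, -0.15, -0.060 and -0.0018 in the 4 cases below 0). The cause was not tested for any of these. With 5 fish a group, and 10 to 20 counts per control in the scarcest genes, small changes are not detectable.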
